A study of Homo sapiens with 64 samples.

Results

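The genes described here are 10 sphingolipid enzymes: SGPL1, SGMS1, SGMS2, SPHK1, SPHK2, CERS2, CERS5, CERS6, ASAH1 and SMPD1. They were taken by name from the 26364 genes of the deposited count files. SGPL1 was chosen for the adrenal insufficiency that its loss, like that of NNT, causes, and SGMS2 was selected on its measured fall with siRNA-2 in these same libraries. The comparison of siRNA-2 with its control is therefore given for these genes as a description, with no test. SGMS2 is likewise given without a test wherever siRNA-2 or scrambled siRNA libraries enter. All 10 passed the low-count filter and were among the 15201 genes tested. A further 57 genes of sphingolipid metabolism, listed by role, are given as counts, of which 48 were tested.

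Knockdown of NNT was studied by sequencing the messenger RNA of NCI-H295R, a steroid-producing cell line from a human adrenocortical carcinoma. The NNT protein, nicotinamide nucleotide transhydrogenase, sits in the inner mitochondrial membrane and regenerates NADPH there. The groups were cells with siRNA-2 against NNT (3 libraries), cells with siRNA-3 against NNT (3 libraries) and cells with a scrambled siRNA (3 libraries), all harvested 72 h after transfection, and cells with an shRNA against NNT (4 libraries) and cells with a scrambled shRNA (3 libraries), with no time given. All 16 libraries came from the same line and every control carried a scrambled RNA, so no untreated cells were compared. The protocols speak of triplicates although 4 libraries are labelled NNT shRNA, and separate cultures are not stated for the libraries of a group, so p-values reflect how far these libraries spread, which could be a technical spread. A code from the title, such as 11-1, names each library within its group, and its meaning is not given.

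Sphingolipids are built on a long-chain base. Serine palmitoyltransferase starts the pathway, ceramide synthases (CERS2, CERS5 and CERS6 among them) attach a fatty acid to give ceramide, and the sphingomyelin synthases SGMS1, in the Golgi, and SGMS2, at the plasma membrane and Golgi, turn ceramide into sphingomyelin. In the lysosome SMPD1, acid sphingomyelinase, releases ceramide again and ASAH1, acid ceramidase, cleaves it to sphingosine. The kinases SPHK1 and SPHK2 phosphorylate sphingosine to sphingosine 1-phosphate (S1P), a ligand of cell-surface receptors, and SGPL1, S1P lyase, degrades S1P irreversibly at the endoplasmic reticulum. In adrenocortical cells sphingosine is known as a ligand of the steroidogenic factor NR5A1, and biallelic loss of SGPL1 causes primary adrenal insufficiency with nephrotic syndrome.

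Promoter sequence is shown for 3 enzymes. SGPL1 had the steadiest level, SGMS2 was selected on the siRNA-2 libraries, and SPHK1 had the largest fold change between siRNA-2 and siRNA-3. Much of the SPHK1 difference came from 1 library, 11-1 of siRNA-2. Each window holds the 250 bases before the first listed start, from RefSeq (GRCh38.p14). Windows were searched for 8 of the 10 enzymes, ASAH1 and CERS2 being left out. Capitals mark matches on either strand to AGGTCA, the core of nuclear receptor binding sites, to GGGCGG, the GC box, and to TGACNNNGC, the core of the antioxidant response element. The SGPL1 window is chr10:70815698-70815947, the SGMS2 window chr4:107824313-107824562 and the SPHK1 window chr17:76382954-76383203, all on the plus strand.
SGPL1: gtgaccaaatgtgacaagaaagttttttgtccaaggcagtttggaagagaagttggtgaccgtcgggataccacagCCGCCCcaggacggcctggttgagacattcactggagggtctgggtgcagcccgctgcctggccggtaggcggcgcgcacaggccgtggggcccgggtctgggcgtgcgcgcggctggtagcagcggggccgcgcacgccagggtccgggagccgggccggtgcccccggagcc
SGMS2: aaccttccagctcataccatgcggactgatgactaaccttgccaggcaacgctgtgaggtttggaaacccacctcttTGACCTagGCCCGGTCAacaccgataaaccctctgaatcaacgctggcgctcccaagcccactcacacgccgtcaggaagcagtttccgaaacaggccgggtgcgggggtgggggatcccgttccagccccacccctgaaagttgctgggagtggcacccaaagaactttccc
SPHK1: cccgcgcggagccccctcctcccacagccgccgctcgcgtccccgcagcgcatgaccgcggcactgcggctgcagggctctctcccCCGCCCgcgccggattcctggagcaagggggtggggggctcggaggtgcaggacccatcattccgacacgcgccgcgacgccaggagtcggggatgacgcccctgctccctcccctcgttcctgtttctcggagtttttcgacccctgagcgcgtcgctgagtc
The SGPL1 window held 1 GGGCGG, 174 bases before the start, and the SPHK1 window 1 GGGCGG, 164 bases before the start, both on the minus strand. The SGMS2 window held no GGGCGG, but 1 AGGTCA at 173 bases and 1 TGACNNNGC at 165 bases before the start, both on the minus strand and not overlapping. Other listed starts differed: the windows of the second SGMS2 start and the second SPHK1 start each held 2 GGGCGG and neither of the other motifs, and those of a further start of each gene held none of the motifs. Of the 35116 promoter windows of this length, 42.6% held GGGCGG, 12.1% held AGGTCA and 10.9% held TGACNNNGC. These are matches of letters, not measured binding sites.

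SGPL1 lies on chromosome 10 from 70815961 to 70881173 on the plus strand and SGMS2 on chromosome 4 from 107824563 to 107915047 on the plus strand (GRCh38, GENCODE v29), with 15 and 7 exons in their longest coding transcripts. Per kilobase of exon, CERS2 was the most abundant of the 10 transcripts, with a mean over the 16 libraries of 80.2 CPM per kb, where CPM are counts scaled to a library total of 1000000. SMPD1 (15.3), CERS5 (15.1), SGPL1 (14.7), ASAH1 (12.2) and CERS6 (11.8 CPM per kb) followed at similar levels. SPHK2 had 8.08, SGMS1 7.67 and SGMS2 3.34 CPM per kb, and SPHK1 was the least abundant at 0.483 CPM per kb. So of each pair of enzymes that do the same step, SGMS1 stood above SGMS2 and SPHK2 above SPHK1. CPM elsewhere are not divided by length. In bulk RNA such levels cannot tell fewer cells of a type apart from less RNA per cell.

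**Figure D1:**
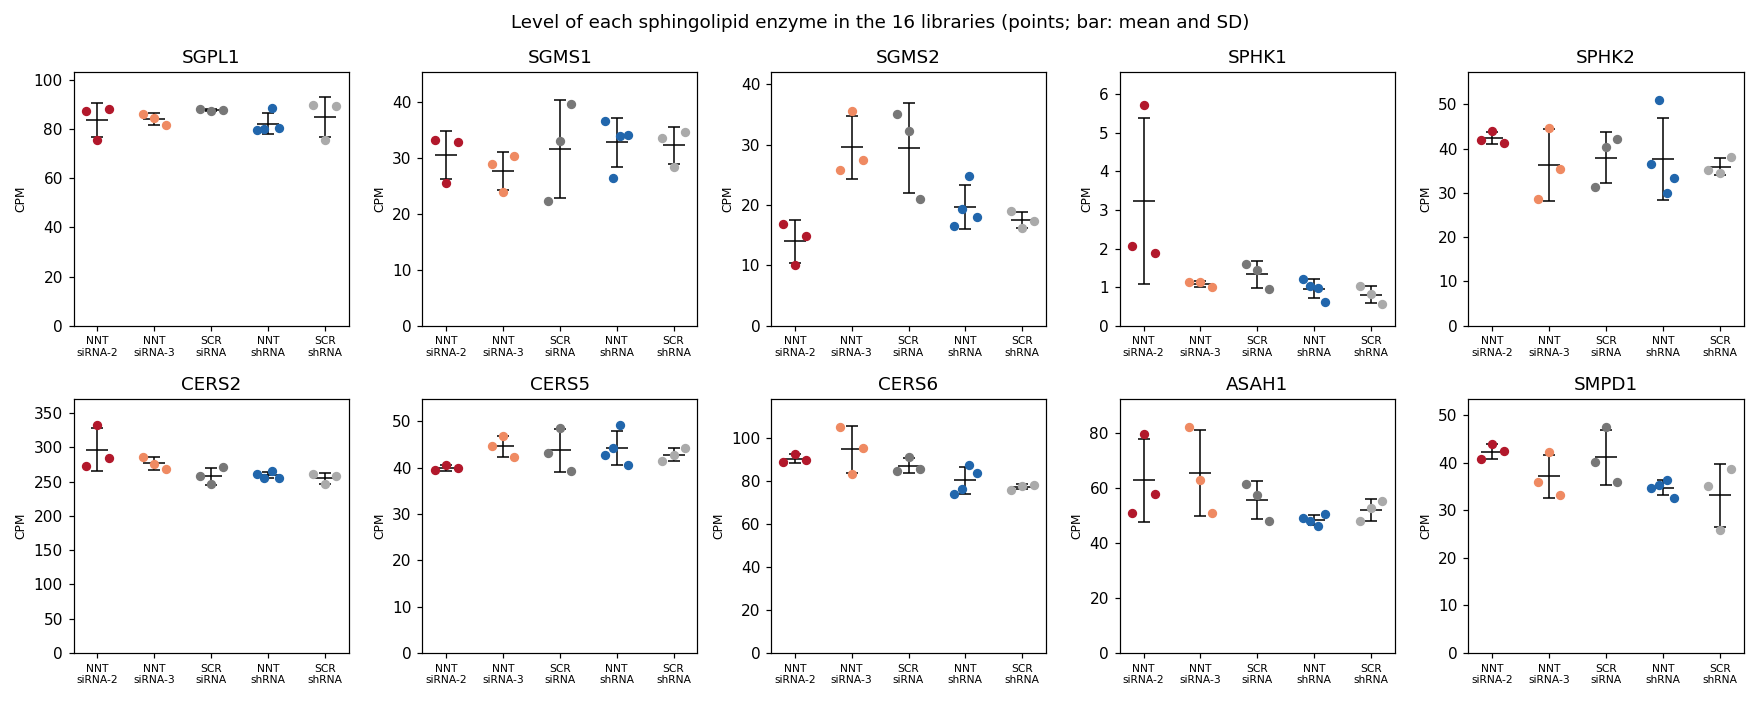
Level of each of the 10 enzymes (y axis, CPM from 0) in the 16 libraries by group (x axis); points are libraries and bars the mean and SD. SGPL1 lies between 75.4 and 89.6 CPM in every group, whereas SGMS2 is lowest and SPHK1 highest in the siRNA-2 libraries.

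Libraries held 20148231 to 43992833 gene counts. NNT was 28.7 to 34.6 CPM in NNT shRNA libraries, against 317 to 415 CPM in scrambled shRNA libraries, and 31.8 to 47.8 CPM in siRNA-3 libraries, against 296 to 362 CPM in scrambled siRNA libraries. In siRNA-2 libraries NNT was 49.9 CPM in 11-1, 187 CPM in 16-1 and 233 CPM in 11-12, so knockdown was uneven. Library 11-1 of siRNA-2 also stood apart over all genes, at -50.7 on the second principal component, where the other 15 libraries lay between -13.6 and 23.7. The 8 adrenocortical markers were all detected and summed to 861 to 1631 CPM, the highest sums (1573 to 1631 CPM) being those of siRNA-3. Fibroblast markers (5 genes) summed to 7.96 to 21.8 CPM, endothelial markers (4 genes) to 0.0255 to 0.285 CPM and immune markers (4 genes) to 0.448 to 1.79 CPM. The 6 chromaffin or neural markers summed to 57.3 to 71.6 CPM in siRNA-2, 33.0 to 43.9 CPM in siRNA-3, 43.9 to 50.3 CPM in scrambled siRNA, 53.8 to 65.7 CPM in NNT shRNA and 50.6 to 52.4 CPM in scrambled shRNA libraries, with PNMT at 0 in all of them.

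Knockdown with the shRNA, which asks what loss of NNT does, left the 10 enzymes close to their controls. SGPL1 measured 79.5, 80.1, 88.5 and 80.4 CPM in NNT shRNA libraries, against 89.6, 75.4 and 89.4 CPM in scrambled shRNA libraries. The groups overlapped, and the log2 fold change was -0.05 (SE 0.08, 95% interval -0.21 to 0.12). SGMS2 measured 16.6, 19.4, 24.9 and 18.02 CPM in NNT shRNA libraries, against 19.0, 16.3 and 17.4 CPM in scrambled shRNA libraries. Library 2-3 was the highest of the 7 and the rest overlapped, giving a log2 fold change of 0.17 (SE 0.19, 95% interval -0.22 to 0.56). Over the 10 enzymes the log2 fold changes ran from -0.10 (ASAH1) to 0.20 (SPHK1), with a median of 0.05 beside 0.01 over all genes tested. No enzyme of the 10 was called, that is, passed 0.05 after Benjamini-Hochberg adjustment in the quasi-likelihood test of edgeR, 0 had an unadjusted p under 0.05 and DESeq2 called 0, where 0.0197% of all genes tested were called. Libraries overlapped for all 10 enzymes, where 3.19% of all genes had none. The intervals were tightest for CERS2 (-0.13 to 0.17) and widest for SPHK1 (-0.60 to 0.99), which rested on 15 to 46 counts in a shRNA library.

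Knockdown with siRNA-3, in which NNT had a log2 fold change of -3.13 (SE 0.35), likewise brought no tested enzyme past the threshold. SGPL1 measured 86.1, 84.5 and 81.4 CPM in siRNA-3 libraries, against 88.2, 87.4 and 87.9 CPM in scrambled siRNA libraries. All 3 siRNA-3 values lay below all 3 control values, but the log2 fold change was only -0.06 (SE 0.08, 95% interval -0.24 to 0.11, adjusted p = 0.740, edgeR). SGPL1 was the 1 enzyme of the 10 whose libraries did not overlap in this direction, as was the case for 10.5% of all genes tested. SGMS2 measured 25.8, 35.6 and 27.4 CPM in siRNA-3 libraries, against 35.1, 32.2 and 21.0 CPM in scrambled siRNA libraries. These overlapped, with a log2 fold change of 0.00 (SE 0.20). That value is a description, since SGMS2 was selected on a fall against these same controls. ASAH1 had the highest estimate, 0.23 (SE 0.16, adjusted p = 0.486, edgeR), with 82.0, 62.7 and 51.0 CPM in siRNA-3 libraries against 61.5, 57.5 and 48.1 CPM in scrambled siRNA libraries. Leaving aside SGMS2, edgeR called 0 enzymes for siRNA-3, 0 had an unadjusted p under 0.05 and DESeq2 called 0, where 2.12% of all genes were called. The median log2 fold change of the 10 was -0.03 beside 0.00 over all genes.

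The shRNA effect minus the siRNA-3 effect, which sets the 2 effective knockdowns against each other, was small for SGPL1 at 0.02 on the log2 scale (95% interval -0.22 to 0.26). For ASAH1 the difference was -0.33 (95% interval -0.78 to 0.13). That of SGMS2 was 0.17, a description because the scrambled siRNA libraries enter it. Leaving aside SGMS2, edgeR called 0 of the differences (0 with an unadjusted p under 0.05, DESeq2 0), where 0.0460% of all genes were called.

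The siRNA-2 libraries held the lowest SGMS2 values of the 3 siRNA groups. SGMS2 measured 10.1 CPM in 11-1, 16.9 CPM in 11-12 and 14.9 CPM in 16-1, against 35.1, 32.2 and 21.0 CPM in scrambled siRNA libraries. The groups did not overlap, and the log2 fold change of -1.07 (SE 0.20) is the value for which the gene was chosen. It was -0.89 without library 11-1. The siRNA-2 and siRNA-3 comparisons share their scrambled controls. SPHK1 measured 5.72 CPM in 11-1, 2.07 CPM in 11-12 and 1.89 CPM in 16-1, against 1.61, 1.44 and 0.947 CPM in scrambled siRNA libraries. Its log2 fold change was 1.24 (SE 0.37) with all libraries and 0.56 without 11-1, so that library sets much of the size. By edgeR's threshold 1 of the 10 enzymes, SGMS2, was lower, a count that the choice of SGMS2 fixes and from which nothing is read; over all genes the share was 0.974%. CERS2 was 332, 273 and 284 CPM in siRNA-2 libraries, against 258, 246 and 271 CPM in scrambled siRNA libraries, again without overlap, so 3 of the 10 enzymes did not overlap, where 22.4% of all genes did not. For the other 7 enzymes the libraries overlapped, with log2 fold changes of -0.13 (CERS5) to 0.17 (ASAH1), that of SGPL1 being -0.07 (SE 0.08).

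Within siRNA-2, library 11-1 had the lowest NNT and also the lowest SGMS2, SGPL1 (75.6 CPM) and SGMS1 (25.5 CPM) and the highest SPHK1, CERS2 and ASAH1 (79.4 CPM) of its group. SPHK2, CERS5, CERS6 and SMPD1 were also highest there. In a group of 3 libraries most values lie at an end of the range. The share of all genes at an end in this library was not computed, so nothing is read about the enzymes. Library 11-1 of siRNA-2 also had the largest share of reads in no gene of all 16, at 16.5%. In NNT shRNA libraries SGMS2 was 16.6 to 24.9 CPM, beside 16.3 to 19.0 CPM in scrambled shRNA libraries. In siRNA-3 libraries it was 25.8 to 35.6 CPM, beside 21.0 to 35.1 CPM in scrambled siRNA libraries. A relation of SGMS2 to the NNT level was not tested. ASAH1 was also high in siRNA-3 library 11-1, at 82.0 CPM. The highest SGMS2 of all 16 libraries, 35.6 CPM, was that of siRNA-3 library 23-5.

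**Figure D2:**
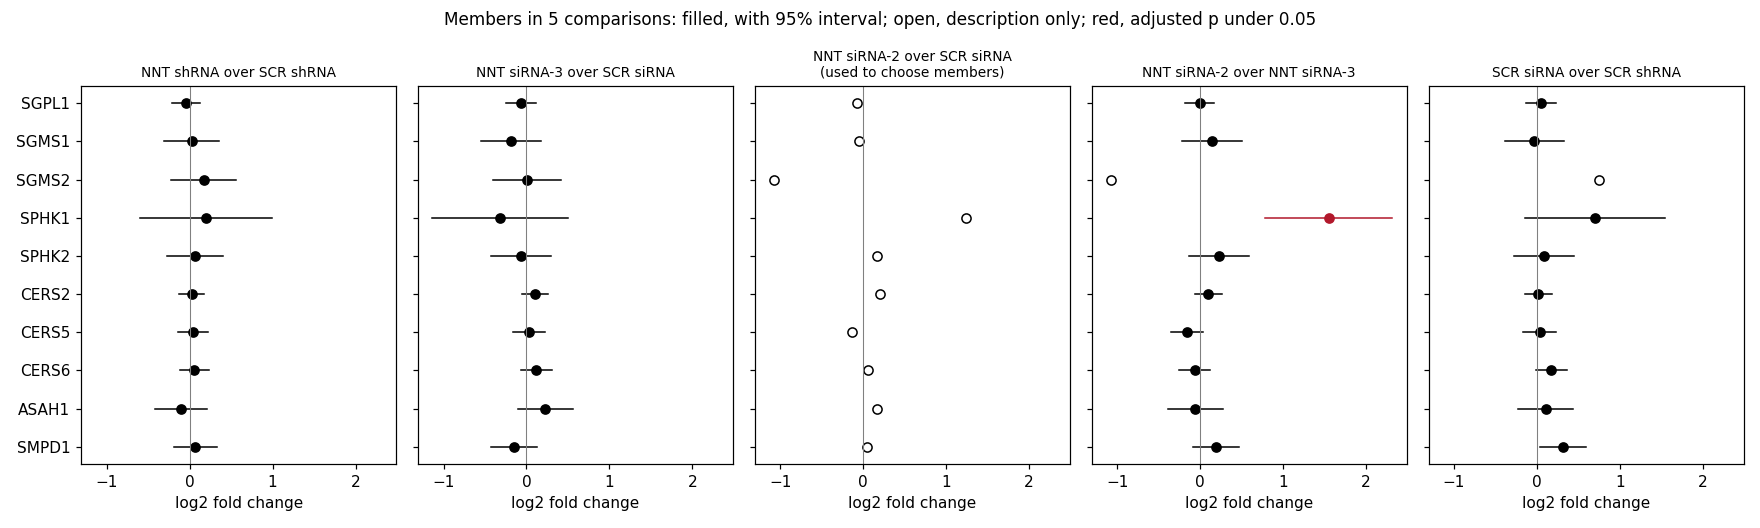
Log2 fold change (x axis) of the 10 enzymes (rows) in 5 comparisons (panels); filled points carry 95% intervals, open points are descriptions without a test, and red marks an adjusted p under 0.05. SPHK1 between the siRNAs, at 1.55, is the red point, and the SGPL1 points lie between -0.07 and 0.05. The SGMS2 point of siRNA-3, though filled, is also a description.

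The comparison of siRNA-2 with siRNA-3 sets 2 agents against the same transcript side by side, at unequal knockdown: NNT was 2.02 higher on the log2 scale in siRNA-2 libraries (SE 0.34, adjusted p = 0.00111, edgeR). SPHK1 was higher with siRNA-2, at 5.72, 2.07 and 1.89 CPM, against 1.13, 1.12 and 0.995 CPM with siRNA-3. The libraries did not overlap, and the log2 fold change was 1.55 (SE 0.36, 95% interval 0.79 to 2.32, adjusted p = 0.00930, edgeR). This call rested on library 11-1 of siRNA-2: without it the log2 fold change was 0.87 (adjusted p = 0.0748, edgeR). It also missed the threshold when only these groups were fitted (1.56, adjusted p = 0.0681, edgeR). SPHK1 rested on 53 to 130 counts in siRNA-2 libraries and 35 to 39 counts in siRNA-3 libraries. The chromaffin or neural marker sum was also higher with siRNA-2, at 57.3 to 71.6 CPM in siRNA-2 and 33.0 to 43.9 CPM in siRNA-3 libraries. So was the fibroblast sum, at 11.8 to 21.8 CPM in siRNA-2 and 7.96 to 11.2 CPM in siRNA-3 libraries. Immune sums overlapped. Some markers of both sets, among them DBH, TH and COL1A2, were too low to test. In NNT shRNA libraries the chromaffin or neural sum was 53.8 to 65.7 CPM, with SPHK1 at 0.623 to 1.21 CPM. The part of these markers in the SPHK1 difference was not tested.

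SGMS2 was 10.1 to 16.9 CPM with siRNA-2, against 25.8 to 35.6 CPM with siRNA-3, a log2 fold change of -1.08 (SE 0.20) that is a description since these siRNA-2 libraries chose the gene. The sum of the adrenocortical markers stood lower in the same direction, at 885 to 1089 CPM in siRNA-2 and 1573 to 1631 CPM in siRNA-3 libraries. Single markers ran from -1.51 (HSD3B2) to 0.09 (INHA) on the log2 scale, with MRAP at -0.04. The part of these markers was not tested. CERS5 was 39.4 to 40.7 CPM with siRNA-2, against 42.4 to 46.9 CPM with siRNA-3, without overlap, but its log2 fold change of -0.16 (SE 0.09) missed the threshold (adjusted p = 0.267, edgeR). SPHK2 had a log2 fold change estimated at 0.23 (SE 0.17, adjusted p = 0.407, edgeR), or 0.55 (adjusted p = 0.0453) in a fit with the title code as a replicate block. SGPL1 did not differ detectably, at -0.01 (SE 0.08, 95% interval -0.18 to 0.17). Leaving aside SGMS2, 1 enzyme of the other 9, SPHK1, was called in this comparison, where 14.4% of all genes were called. Libraries did not overlap for 3 of the 10, SPHK1, SGMS2 and CERS5, where they did not for 31.6% of all genes.

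Between the scrambled controls of the 2 delivery systems, edgeR called none of the enzymes, SGMS2 being left aside. SGMS2 measured 35.1, 32.2 and 21.0 CPM with the scrambled siRNA, against 19.0, 16.3 and 17.4 CPM with the scrambled shRNA. The libraries did not overlap, and the log2 fold change was 0.75 (SE 0.20). It is given without a test, because SGMS2 was selected on a fall against these same scrambled siRNA libraries. SGMS2 in siRNA-2 libraries, at 10.1 to 16.9 CPM, thus overlapped the scrambled shRNA range while lying below the scrambled siRNA range. CERS6 was 84.6 to 91.2 CPM with the scrambled siRNA, against 76.1 to 78.4 CPM with the scrambled shRNA, a log2 fold change estimated at 0.17 (SE 0.09, adjusted p = 0.332, edgeR). These were the 2 enzymes of the 10 whose libraries did not overlap and were higher, as were those of 12.5% of all genes. Leaving aside SGMS2, edgeR called none of the enzymes at an adjusted p of 0.05, where 1.74% of all genes were called. SMPD1 was the 1 of these enzymes with an unadjusted p under 0.05, and DESeq2 called none of them. Delivery, time and library preparation of the systems cannot be told apart.

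Ordered by group mean, SGMS2 was lowest in siRNA-2 (13.98 ± 3.50 CPM, SD, n = 3), then in scrambled shRNA (17.5 ± 1.36, n = 3), NNT shRNA (19.7 ± 3.62, n = 4), scrambled siRNA (29.4 ± 7.48, n = 3) and siRNA-3 (29.6 ± 5.22 CPM, n = 3). Each neighbour in that order overlapped the next. For SPHK1 the order was scrambled shRNA (0.807 ± 0.227 CPM, n = 3), NNT shRNA (0.959 ± 0.245, n = 4), siRNA-3 (1.08 ± 0.0760, n = 3), scrambled siRNA (1.33 ± 0.344, n = 3) and siRNA-2 (3.23 ± 2.16 CPM, n = 3). Only the step to siRNA-2 was free of overlap. The SGPL1 group means ran from 82.1 ± 4.28 CPM in NNT shRNA (n = 4) to 87.8 ± 0.415 CPM in scrambled siRNA (n = 3), each overlapping the next. Its highest library exceeded its lowest by 1.19 times, and 0.829% of all genes tested had a smaller ratio over the 16 libraries. That ratio was 3.51 for SGMS2 and 10.0 for SPHK1, and for the 7 other enzymes 1.26 (CERS5) to 1.84 (SMPD1).

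Relative to its partner enzyme, SGMS2 made up 19.7 to 23.9% of the summed SGMS1 and SGMS2 CPM per kb in siRNA-2 libraries, 35.5 to 47.9% in siRNA-3 libraries and 24.6 to 49.3% in scrambled siRNA libraries. In NNT shRNA libraries this share was 21.9 to 31.1%, against 23.6 to 26.1% in scrambled shRNA libraries. SPHK1 made up 6.72 to 17.0% of the summed SPHK1 and SPHK2 CPM per kb in siRNA-2 libraries, 3.79 to 5.83% in siRNA-3 libraries and 3.41 to 7.43% in scrambled siRNA libraries. In the shRNA system the SPHK1 share was 2.85 to 4.94% in NNT shRNA libraries, against 2.30 to 4.36% in scrambled shRNA libraries. Per kb of exon, SGMS1 and SPHK2 were the more abundant transcript of each pair in all 16 libraries, SGMS1 by little at the SGMS2 share of 49.3%. Not divided by length, SGMS2 exceeded SGMS1 in siRNA-3 library 23-5 (35.6 against 23.9 CPM). It also did so in scrambled siRNA library 16-1 (35.1 against 22.3 CPM).

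**Figure D3:**
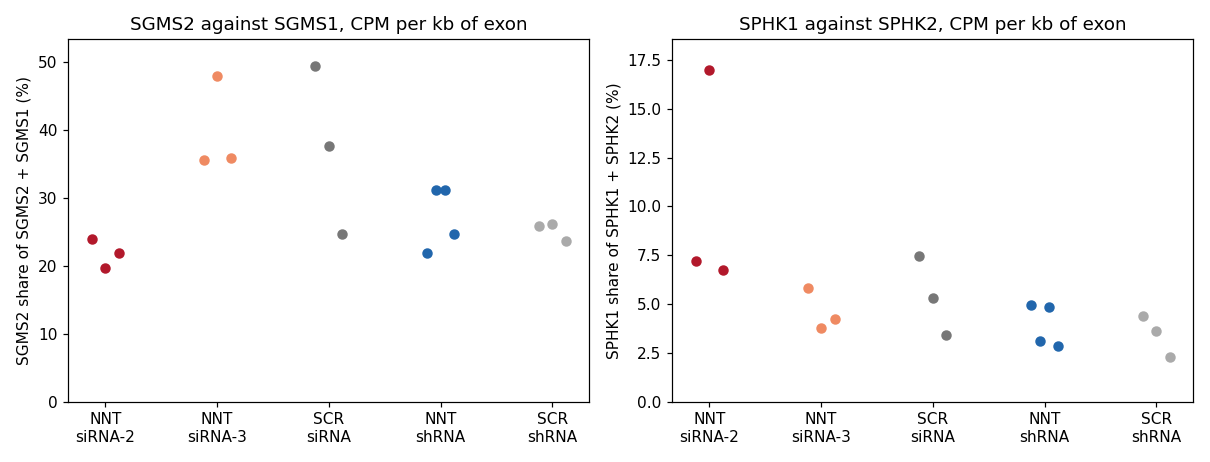
Share (y axis, percent) of SGMS2 in SGMS1 plus SGMS2, left, and of SPHK1 in SPHK1 plus SPHK2, right, from CPM per kb of exon, for each library (points) by group (x axis). SGMS2 shares in siRNA-2 libraries (19.7 to 23.9%) lie below those of the other siRNA groups, and 1 siRNA-2 library reaches 17.0% for SPHK1.

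The kinase SPHK2 ran from 28.7 to 51.0 CPM over the 16 libraries, the highest value being that of NNT shRNA library 19-2. SMPD1 averaged 42.4 ± 1.55 CPM in siRNA-2 libraries (n = 3), 37.2 ± 4.56 in siRNA-3 (n = 3) and 41.2 ± 5.82 in scrambled siRNA libraries (SD, n = 3). In the shRNA system SMPD1 averaged 34.8 ± 1.62 CPM in NNT shRNA (n = 4) and 33.2 ± 6.64 CPM in scrambled shRNA libraries (n = 3). SGMS1 averaged 30.5 ± 4.35 CPM in siRNA-2, 27.7 ± 3.39 CPM in siRNA-3 and 31.6 ± 8.73 CPM in scrambled siRNA libraries (SD, n = 3 each). The exons of SPHK2 overlap those of RPL18 and DBP on the other strand, those of CERS2 overlap SETDB1 and those of CERS6 overlap CERS6-AS1. The strand setting of the counting was not given in the sources used here, and reads of these partners cannot be told apart.

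Among 10153 other genes with a mean log2 CPM of at least 3, those whose log2 CPM followed SGPL1 most closely over the 16 libraries were LNPEP (Pearson r = 0.817), EXT2 (0.748) and JAM3 (0.744). With group means removed, these were 0.828, 0.768 and 0.720. The genes most like SGMS2 were OTUD4 (r = 0.928), FAM126B (0.921) and C16orf52 (0.917), and 0.766, 0.811 and 0.677 with group means removed. These are the top ranks of many genes in libraries that share their preparation, and are given as a description.

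Of the 57 further sphingolipid genes, 9 were too low to test, among them SPTSSB (at most 19 counts in a library), CERS3 (at most 13), UGT8 (at most 11) and S1PR4 (0 counts in every library). Knockdown with the shRNA called 0 of the 48 tested in edgeR (0 with an unadjusted p under 0.05, DESeq2 0), and their median log2 fold change was 0.01 beside 0.01 over all genes. Knockdown with siRNA-3 raised 2 of 48 and lowered 1, where 2.12% of all genes were called. SPTLC3, a serine palmitoyltransferase subunit, was 11.6, 10.8 and 14.3 CPM in siRNA-3 libraries, against 18.5, 21.2 and 24.2 CPM in scrambled siRNA libraries, and fell (log2 fold change -0.80, SE 0.19, adjusted p = 0.0335, edgeR). The lysosomal alpha-galactosidase GLA rose by 0.45 (SE 0.11, adjusted p = 0.0393, edgeR), with 52.8, 41.6 and 46.9 CPM in siRNA-3 libraries against 36.5, 30.2 and 36.6 CPM in scrambled siRNA libraries. The lysosomal sialidase NEU1 rose by 0.69 (SE 0.18, adjusted p = 0.0499, edgeR), with 143, 111 and 88.5 CPM in siRNA-3 libraries against 79.0, 64.5 and 68.6 CPM in scrambled siRNA libraries. For all 3 genes the siRNA-3 and scrambled siRNA libraries did not overlap, but leaving out 1 library at a time kept each of these calls in 1 of 6 fits.

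By role, the 9 median log2 fold changes with siRNA-3 ran from -0.13 for the other ceramidases (3 genes, range -0.15 to 0.08) to 0.35 for glycosphingolipid synthesis (5 genes, range -0.31 to 0.69), beside 0.00 over all genes. The glycosphingolipid hydrolases and their activators, most but not all of them lysosomal, had 0.23 (11 genes, range -0.38 to 0.69). The other ceramide synthases and desaturases had -0.09 (4 genes), and the remaining 5 roles -0.01 to 0.05. Among the roles without a call in the tested comparisons, ceramide transport and phosphorylation had COL4A3BP, the ceramide transfer protein, at 157 ± 28.9 CPM in siRNA-3 and 117 ± 8.68 CPM in scrambled siRNA libraries (SD, n = 3 each). Its log2 fold change of 0.42 missed the threshold (adjusted p = 0.0576, edgeR). DEGS1, the desaturase of de novo ceramide synthesis, was 124 ± 5.15 CPM in siRNA-3 and 117 ± 0.240 CPM in scrambled siRNA libraries (n = 3 each). ALDH3A2, which oxidises the aldehyde that SGPL1 releases from S1P, was 463 ± 108 CPM in siRNA-3 and 347 ± 38.0 CPM in scrambled siRNA libraries, with overlap (log2 fold change 0.42, adjusted p = 0.0936, edgeR). The alkaline ceramidase ACER3 was 65.7 ± 7.48 CPM in siRNA-3 and 72.2 ± 4.85 CPM in scrambled siRNA libraries, also with overlap.

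Between the siRNAs, 2 of the 48 were called higher and 4 lower with siRNA-2, a share no higher than the 14.4% of all genes called. SMPD3, neutral sphingomyelinase, was 6.51, 3.83 and 3.29 CPM with siRNA-2, against 1.58, 1.89 and 2.07 CPM with siRNA-3, and was 1.28 higher on the log2 scale (SE 0.24, adjusted p = 0.00229, edgeR). It was 1.04, 1.75 and 1.35 CPM in scrambled siRNA libraries. The 5 genes outside the 10 that were listed as sphingomyelinases, or are named for likeness to them, had a median log2 fold change of 0.11 between the siRNAs. Their range was -0.20 to 1.28, and SMPD3 was the 1 called. The S1P receptor S1PR5 was 4.49, 4.11 and 5.62 CPM with siRNA-2, against 2.95, 2.28 and 3.04 CPM with siRNA-3 (0.78, SE 0.19, adjusted p = 0.0124, edgeR). The lactosylceramide synthases were lower with siRNA-2, B4GALT5 at -0.85 (log2 fold change, SE 0.17, adjusted p = 0.00327) and B4GALT6 at -0.48 (SE 0.11, adjusted p = 0.00836, edgeR). B4GALT5 was 140, 270 and 206 CPM with siRNA-2, against 432, 338 and 337 CPM with siRNA-3. The lysosomal galactosidases GLB1 (-0.26, adjusted p = 0.0368) and GLA (-0.36, adjusted p = 0.0342, edgeR) were also lower with siRNA-2. Leaving out 1 library at a time kept the calls of SMPD3, B4GALT5 and B4GALT6 in 6 of 6 fits, S1PR5 in 4, GLA in 2 and GLB1 in 1. With the title code as a replicate block S1PR5 missed the threshold (0.60, adjusted p = 0.0799, edgeR). When only these groups were fitted, SMPD3 alone of these genes passed (adjusted p = 0.0410, edgeR).

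Between the scrambled controls 1 of the 48 was called, where 1.74% of all genes were: GALC, the lysosomal galactosylceramidase, at 148, 139 and 131 CPM with the scrambled siRNA, against 97.6, 88.9 and 98.4 CPM with the scrambled shRNA (log2 fold change 0.55, SE 0.09, adjusted p = 0.00528, edgeR). In siRNA-2 against its scrambled control, which the choice of genes used, 1 of the 48 was called, SMPD3, with a log2 fold change of 1.68 (SE 0.25). Over all genes, 299 of the 15201 tested were called in that comparison, in either direction.

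**Figure D4:**
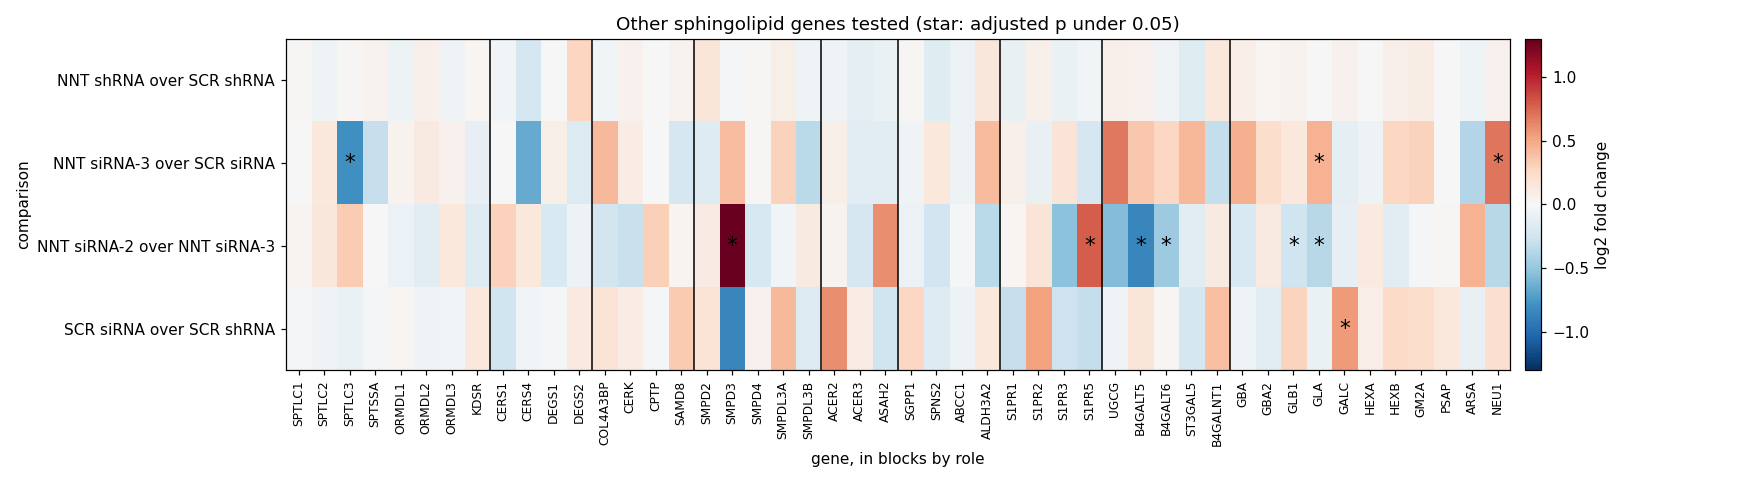
Log2 fold change (colour scale) of the 48 further sphingolipid genes tested (columns, in blocks by role) in 4 comparisons (rows); stars mark an adjusted p under 0.05. The NNT shRNA row is pale and without stars, and the siRNA-2 over siRNA-3 row holds 6 stars, with SMPD3 at 1.28 and B4GALT5 at -0.85.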

How the data were processed

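Poly(A) RNA libraries were made with a strand-marking TruSeq kit, per the labels' protocols. The authors deposited whole-number counts of reads per gene, 1 file for each of 4 lanes of 16 libraries (64 files). STAR 2.4.2a, hg19, HTSeq 0.6.1p1 and DESeq2 1.14.1 are named in the submitters' processing notes, while annotation, counting mode and strand setting were not given in the sources used here.

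Lanes were summed, since they differed within a library by little more than sampling noise (chi-square per degree of freedom 1 to 1.04, against 8.11 to 36.7 for the 18 pairs of libraries of 1 group). Reads in no gene (11.3 to 16.5% of a library) were left out. All libraries entered 1 edgeR 4.0.16 fit (R 4.3.3) with a term per group, TMM scaling, the low-count filter (minimum count 10), quasi-likelihood tests and Benjamini-Hochberg adjustment over 15201 genes (call at 0.05), with a BCV of 0.118 and 11 residual degrees of freedom. The fit was tested on simulated data. Positions and exon lengths came from GENCODE v29 (GRCh38) by gene symbol; the count files hold no coordinates.

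The members, gene lists and tests were chosen with earlier results of these data known. Named genes were NNT, the 10 enzymes, listed genes called in a tested comparison, the most abundant of roles without a call (at most 2 each) and the 3 genes most like SGPL1 and SGMS2. A few cell type markers are named beside their sums.

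The reported values come from the fit without a block. Deviations from group means correlated by 0.141, 0.213 and 0.133 within a shRNA title code. Of the siRNA codes, 23-5 and 30-11 also correlated (0.361 and 0.367), 11-1 and 16-1 did not (-0.019 and 0.014). Pairs with unlike codes ran from -0.181 to 0.156 in the shRNA system and from -0.318 to 0.170 in the siRNA system. The same-code shRNA values thus lay within or little above the range of unlike codes. Alternatives were DESeq2's size factors, no filter, a filter at 5 CPM in 3 libraries, a fit of the compared groups alone, the code as a replicate block, DESeq2 1.42.0, lane 1 only, and leaving out each library.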

Additional observations from a re-analysis of the deposited data

Results flagged for a closer look

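SGPL1 in the NNT shRNA group was 88.5 CPM in library 2-3, against 79.5 to 80.4 CPM in the other 3 NNT shRNA libraries. The gap made up 0.907 of the group's range, above the critical value of Dixon's test for 4 libraries. The value lay within the scrambled shRNA range of 75.4 to 89.6 CPM. The 4 NNT shRNA libraries were checked in this way for 11 genes, and chance picks out about 1 group in 20.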

How the results depend on the processing

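With no low-count filter, 6 listed pathway genes were called for siRNA-3, 464 genes and 2 enzymes for siRNA-2, 1 enzyme between the scrambled controls and 29 genes for the difference of effects. With the stricter filter, 1 gene was called for the shRNA, 0 pathway genes for siRNA-2 and 1 enzyme between the siRNAs, since SPHK1 was no longer tested. With only the groups compared, 56 genes and 0 pathway genes were called for siRNA-3, 1 gene, 0 enzymes and 0 pathway genes for siRNA-2, 530 genes, 1 enzyme and 1 pathway gene between the siRNAs, and 1 enzyme between the controls. With the replicate block, 1 gene was called for the shRNA, and 490 genes and 3 pathway genes for siRNA-2. Among the enzymes and the pathway genes called in a tested comparison, it changed the calls of SPHK2 and S1PR5 between the siRNAs and no other, and it could not be fitted between the scrambled controls. DESeq2 called 848 genes and 8 pathway genes for siRNA-3, 894 genes, 2 enzymes and 3 pathway genes for siRNA-2, 646 genes, 1 enzyme and 4 pathway genes between the controls and 122 genes for the difference. Lane 1 alone gave 1 gene for the shRNA, 1 pathway gene for siRNA-3, 184 genes, 0 enzymes and 0 pathway genes for siRNA-2, 3 pathway genes between the siRNAs and 118 genes between the controls. Each enzyme called between the controls was SGMS2, which was selected on a fall against the scrambled siRNA libraries, so nothing is read from that count. The 1 enzyme between the siRNAs with the stricter filter, and with only the groups compared, was also SGMS2, selected on the siRNA-2 libraries. Nothing is read from it there, and the enzyme counts for siRNA-2 are a description. The cause of these changes was not tested.

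Outside siRNA-2, the log2 fold changes that turned sign were small and passed no test. For SGMS2 with siRNA-3 these were -0.013 (stricter filter) and -0.007 (only the groups compared), and for SGPL1 between the siRNAs 0.010 (stricter filter) and 0.106 (lane 1). With the replicate block, SGMS1 (-0.001) and CERS5 (-0.011) turned for the shRNA, and SGPL1 (-0.053), SGMS2 (-0.197) and CERS5 (-0.037) for the difference of effects. CERS6 with siRNA-2, a description, also turned with the block (-0.019). With lane 1, SMPD1 (-0.012) turned for the shRNA, SGMS1 (0.004) between the controls and CERS6 (0.016) for the difference.

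Leaving out 1 library at a time gave 1 to 2 genes for the shRNA (3 with all), 69 to 530 for siRNA-3, 2 to 619 for siRNA-2, 1091 to 2101 between the siRNAs, 32 to 456 between the controls and 0 to 42 for the difference. Enzymes called were 0 for the shRNA, siRNA-3 and the difference, 0 to 2 for siRNA-2, 1 to 2 between the siRNAs and 0 to 1 between the controls. The 1 between the controls was again SGMS2. The enzyme counted in every fit between the siRNAs was also SGMS2, which these siRNA-2 libraries chose, and SPHK1 was called in 5 of 6 fits. Nothing is read from SGMS2 there, and the enzyme counts for siRNA-2 are a description. Pathway genes called were 0 for the shRNA, 0 to 4 for siRNA-3, 0 to 3 for siRNA-2, 4 to 7 between the siRNAs, 1 to 2 between the controls and 0 to 1 for the difference. Log2 fold changes that turned sign in such fits, none of them called, ran for the shRNA from -0.058 to 0.112 (SGMS1), -0.112 to 0.163 (SPHK2), -0.001 to 0.040 (CERS2), -0.011 to 0.088 (CERS5) and -0.083 to 0.189 (SMPD1). For siRNA-3 they ran from -0.188 to 0.150 (SGMS2), -0.242 to 0.085 (SPHK2) and -0.045 to 0.113 (CERS5), and between the siRNAs from -0.047 to 0.061 (SGPL1), -0.152 to 0.011 (CERS6) and -0.264 to 0.134 (ASAH1). Between the controls they ran from -0.027 to 0.093 (SGPL1), -0.216 to 0.165 (SGMS1), -0.015 to 0.052 (CERS2) and -0.053 to 0.106 (CERS5), and for the difference from -0.059 to 0.059 (SGPL1), -0.047 to 0.309 (SPHK2), -0.069 to 0.090 (CERS5) and -0.149 to 0.015 (CERS6). For siRNA-2, given as a description, they ran from -0.243 to 0.137 (SGMS1), -0.037 to 0.294 (ASAH1) and -0.054 to 0.153 (SMPD1).

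SPHK1 had 15 to 130 counts per library and a CV of 66.8% among siRNA-2 libraries.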
